A study of Mus musculus with 4 samples.

Results

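The Gli factors and the Fox genes that hedgehog signalling activates were followed by their UMI counts through the cell populations of the embryonic mouse heart. The genes are the Gli factors Gli1, Gli2 and Gli3, the Gli regulators Sufu and Kif7, the Fox genes Foxf1, Foxf2 and Foxd1, and Osr1. The 9 genes were picked by symbol from the 32285 genes counted, and every symbol matched a gene. Hearts were taken from C57BL/6J embryos at E10.5, in mid-gestation. The Wt group was wild-type at Cyp51, and the Ho group was homozygous for I383V in CYP51, a demethylase of cholesterol synthesis. CRISPR/Cas9 is given as the treatment of all 4 samples, and it was used to place the substitution in the germline, so that all tissues of a Ho embryo carried it. Each group had 2 libraries, named Wt1, Wt2, Ho1 and Ho2. How many embryos or litters entered a library is not given in the sources used here, so p-values measure only the spread between these libraries.

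In hedgehog signalling, a secreted ligand such as Shh binds Ptch1 and so relieves the membrane protein Smo from inhibition. Smo then acts through the primary cilium on the Gli factors, which Sufu and Kif7 hold in check. Gli2 is the main activator, Gli3 acts largely as a repressor, and Gli1 is both an activator and a transcriptional target, which makes it a common readout of the pathway. Foxf1, Foxf2, Foxd1 and Osr1 encode transcription factors that hedgehog activates in several kinds of embryonic mesenchyme. At this stage the endoderm behind the heart secretes Shh, and the progenitors that are added to the heart from the pharyngeal and splanchnic mesoderm respond to it.

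On GRCm38, Gli1 lies at chr10:127329882-127341974 on the minus strand, Gli2 at chr1:118834132-119053619 on the minus strand and Gli3 at chr13:15463235-15730026 on the plus strand. Sufu lies at chr19:46396896-46488804 on the plus strand and Kif7 at chr7:79698098-79715720 on the minus strand. Foxf1 lies at chr8:121084386-121088144, Foxf2 at chr13:31625816-31631403, Foxd1 at chr13:98354242-98359305 and Osr1 at chr12:9570116-9581500, all on the plus strand. Exons of Gli1 overlap those of Arhgap9 and Gm47200 on the other strand, exons of Gli3 overlap Gm6556, and exons of Kif7 overlap Ticrr and 9330171B17Rik. The study's methods give the default settings of Cell Ranger, which counts reads on the strand of a gene.

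RefSeq promoter sequences on GRCm38.p6 were matched for Gli2, Gli3, Sufu, Kif7, Foxf2 and Foxd1, and not for Gli1, Foxf1 and Osr1. GGGTGG, the core of the motif bound by Gli factors, was searched on both strands in the 250 bases before each start, and it occurred in 28.1% of 32851 promoters. It was present in 4 of the 6 promoters, with no match in Sufu and Kif7. The longer motif TGGGTGGTC, which contains the core, occurred in 0.225% of promoters and in 0 of the 6. The promoters of the 2 Fox genes are shown because these genes had large differences between the gates described below. They span chr13:31625566-31625815 for Foxf2 and chr13:98353995-98354241 for Foxd1, both on the plus strand, and capitals mark GGGTGG. The Foxd1 window ends before the GENCODE start and has 247 bases.
Foxf2: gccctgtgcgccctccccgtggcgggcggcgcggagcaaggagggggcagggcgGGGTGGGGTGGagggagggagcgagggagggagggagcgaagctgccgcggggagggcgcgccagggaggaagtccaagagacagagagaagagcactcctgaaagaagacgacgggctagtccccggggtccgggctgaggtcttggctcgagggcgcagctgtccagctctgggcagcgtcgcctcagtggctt
Foxd1: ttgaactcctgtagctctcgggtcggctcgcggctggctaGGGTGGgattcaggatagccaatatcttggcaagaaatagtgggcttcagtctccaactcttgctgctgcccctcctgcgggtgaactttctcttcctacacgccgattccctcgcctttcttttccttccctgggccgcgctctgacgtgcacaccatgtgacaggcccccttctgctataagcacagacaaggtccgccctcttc
In Foxf2 a pair of overlapping matches stood at −196 and −191 from the RefSeq start, and in Foxd1 the match stood at −210. A match describes the letters and not a binding site.

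The cells used numbered 8908 in Wt1 and 7154 in Wt2, against 6980 in Ho1 and 6126 in Ho2, once doublets had been taken out. A UMI marks an mRNA molecule captured in a droplet. The Wt cells summed to 97004419 (Wt1) and 105384571 UMIs (Wt2) and the Ho cells to 113596628 (Ho1) and 98459742 UMIs (Ho2). Median depths per cell, listed for Wt1, Wt2, Ho1 and Ho2, were 10551.5, 14231, 15662.5 and 15843 UMIs. Any pair of libraries shared 9 to 29 cell barcodes, at most 0.415% of the smaller library. Cells were gated by 7 lineage markers, Tnnt2 of cardiomyocytes, Cdh5 of endothelium, Hapln1 of cushion mesenchyme, Crabp1 of pharyngeal arch mesenchyme, Isl1 of heart progenitors, Upk3b of epicardium and mesothelium, and Epcam of epithelium. A cell that passed several limits went to the marker with the highest relative level, and 25.7% of cells passed the limits of 2 markers. Cdh5 and Hapln1 were both passed by 4273 cells, Isl1 and Crabp1 by 1353, Tnnt2 and Isl1 by 1008, and Isl1 and Epcam by 566.

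Each gate was checked with 7 further markers of the cell type. In the Tnnt2, Cdh5, Upk3b and Epcam gates all 7 had their highest mean level in their own gate, and in the Hapln1 and Crabp1 gates 6 of 7 did. Of the Isl1 list only Fgf10 and Tlx1 were highest in the Isl1 gate, while others such as Tbx1, Fgf8 and Eya1 were highest in the Epcam gate. The Isl1 gate is therefore named by its marker alone. Samples labelled as heart thus held cells with markers of arch mesenchyme and of epithelium.

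Library Ho1 stood apart from the others. It had 86 cells in the Isl1 gate, or 1.23% of its cells, against 12.2% in Wt1, 11.7% in Wt2 and 12.1% in Ho2. The Crabp1 gate held 21.2% of cells in Wt1, 3.20% in Wt2, 3.66% in Ho2 and 0.659%, or 46 cells, in Ho1. The Epcam gate held 370 cells in Wt1, 126 in Wt2, 243 in Ho2 and 0 in Ho1. Ho1 had 28888 Xist UMIs and 0 UMIs of Y-linked genes, while the other libraries had at most 5 Xist UMIs and at least 8797 of Y-linked genes. Cyp51 itself was measured at 72.1 and 62.3 CPM (UMIs scaled to 1e6 UMIs of the summed cells) in Wt1 and Wt2 and at 54.5 and 67.1 CPM in Ho1 and Ho2, and these counts cannot show the substitution. Results are given with and without Ho1 where it mattered.

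**Figure D1:**
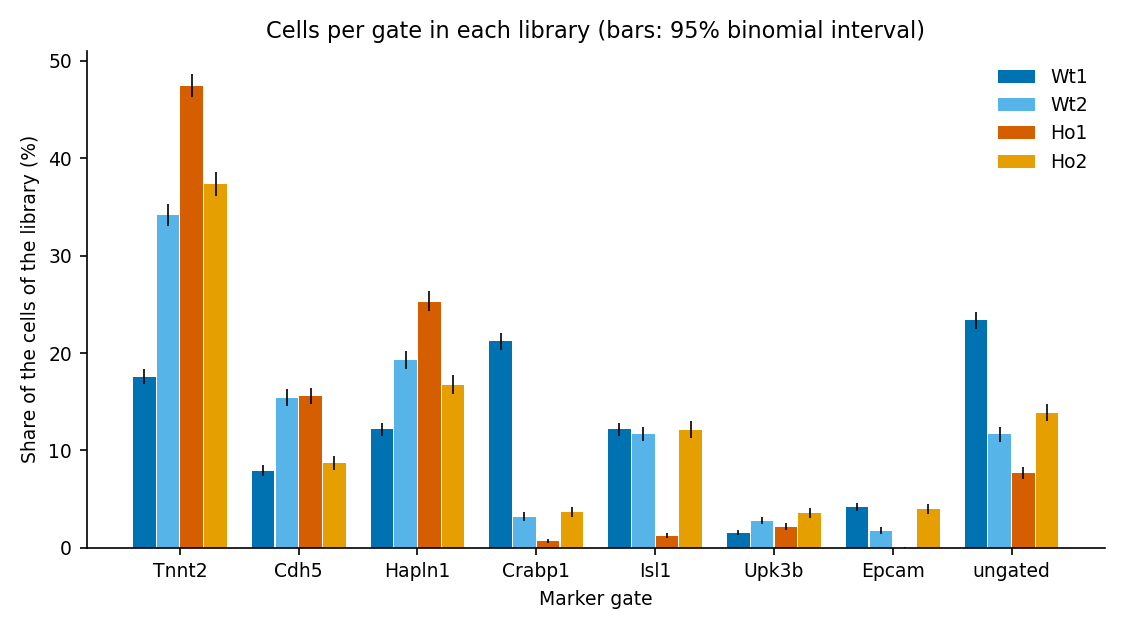
Share of the cells of each library (y axis, %) in each marker gate and among cells in no gate (x axis), with 1 bar per library and exact 95% binomial intervals for counting error. Ho1 had 1.23% of its cells in the Isl1 gate and 0 in the Epcam gate, against 12.2%, 11.7% and 12.1% in the Isl1 gate of Wt1, Wt2 and Ho2.

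The first question was in which cells of the heart these genes were transcribed. Gli1, the readout of the pathway, was at higher levels in the Isl1 and Crabp1 gates of Wt1, Wt2 and Ho2, with levels under 1 CPM in the Tnnt2 and Cdh5 gates. In Wt2 the Epcam gate was higher than both, at 16.5 CPM. In the Isl1 gate Gli1 was at 15.1 CPM in Wt1 and 10.3 in Wt2, and 0 in Ho1 and 14.7 in Ho2. In the Crabp1 gate it was at 9.41, 12.5, 0 and 11.7 CPM in the same order. Ho1 had no Gli1 UMI in either gate, where 3 UMIs would be 2.59 and 4.83 CPM, while the other libraries lay between 9.41 and 15.1 CPM. Gli1 in the Tnnt2 gate was at 0.357 CPM in Wt1 and 0.123 in Wt2, and at 0.0869 in Ho1 and 0.561 in Ho2. In the Cdh5 gate the 4 libraries had 0.191, 0.106, 0 and 0.202 CPM, all below every value of the Isl1 gate outside Ho1. The Isl1 gate held 34.1%, 53.3% and 48.6% of the Gli1 UMIs of Wt1, Wt2 and Ho2, and the Crabp1 gate 40.1%, 17.3% and 10.6%. Cells in no gate held 19.8%, 11.7% and 24.1%, in Ho2 more than the Crabp1 gate. The order of these gates thus differed between libraries, and in Ho1 55.2% of its 29 Gli1 UMIs were in the Hapln1 gate.

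Each gate was compared with the mean of the other gates over 27 sums per library and gate, with edgeR's quasi-likelihood test, the library as a block and Benjamini-Hochberg adjustment over 14585 genes. In the Isl1 gate 7 of the 9 genes were higher, while 18.3% of all genes tested were called higher there. Gli1 was higher by a log2 fold change of 3.26 (SE 0.31, adjusted p = 2.95e-08). In the Crabp1 gate, where 15.8% of all genes were called higher, the same 7 genes were higher, with Gli1 at 3.05 (SE 0.37, adjusted p = 1.09e-06). Without Ho1, 7 genes were called higher in each of these gates, beside 19.3% and 15.2% of all genes. The median log2 fold change of the 9 genes in the Isl1 gate was 2.20, against 0.00 over all genes. Contrasts of different gates share their sums and are not independent of each other.

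Gli2, the main activator, followed Gli1 at smaller differences. Its levels in the Isl1 gate were 8.32 CPM in Wt1 and 8.05 in Wt2, and 4.31 in Ho1 and 6.98 in Ho2, and in the Cdh5 gate 0.287, 0.370, 0.462 and 0.707 CPM. Every library of the Isl1 gate was above every library of the Cdh5 gate. Gli2 was higher in the Isl1 gate (log2 fold change 1.42, SE 0.20, adjusted p = 8.99e-06) and the Crabp1 gate (1.33, SE 0.24, adjusted p = 0.000172). It was also higher in the Upk3b gate, at 6.12, 4.54, 4.91 and 4.07 CPM in Wt1, Wt2, Ho1 and Ho2 (0.91, SE 0.27, adjusted p = 0.00911).

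Gli3, the repressor, had a wider range of cells. It was at 23.8, 21.7, 19.8 and 24.3 CPM in the Isl1 gate of Wt1, Wt2, Ho1 and Ho2, so that Ho1 was close to the others for this gene. In the Crabp1 gate it was at 20.4, 28.2, 40.3 and 24.6 CPM and in the Hapln1 gate at 20.2, 17.1, 19.2 and 16.7 CPM. The Isl1 and Crabp1 gates overlapped, and every library was below both in the Cdh5 gate, with 10.1, 10.0, 10.7 and 9.30 CPM. The lowest levels were in the Tnnt2 gate, at 3.47, 2.23, 2.59 and 3.44 CPM. Gli3 was higher in the Isl1 (log2 fold change 0.88, SE 0.11), Crabp1 (1.11, SE 0.13) and Hapln1 gates (0.63, SE 0.10), and adjusted p-values were 2.28e-06, 6.60e-07 and 2.03e-05. It was lower in the Tnnt2 gate by −2.18 (SE 0.13, adjusted p = 2.65e-13).

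Sufu and Kif7, the cytoplasmic and ciliary regulators of the Gli factors, were found in all gates. Sufu was at 13.7 CPM in Wt1 and 11.3 in Wt2, and at 17.2 in Ho1 and 13.3 in Ho2 in the Isl1 gate, and at 10.1, 9.44, 9.84 and 11.9 CPM in the Tnnt2 gate. The 2 gates overlapped between libraries. Sufu was called in 2 gates, higher in the Cdh5 gate beside 29.5% of all genes (log2 fold change 0.41, SE 0.10, adjusted p = 0.00148) and lower in the Upk3b gate (−0.42, SE 0.15, adjusted p = 0.0272). The second call was lost without Wt1 (−0.28, adjusted p = 0.207) and without Ho1 (−0.35, adjusted p = 0.113). Kif7 had a mean of 5.04 ± 1.01 CPM (SD, n = 4) in the Isl1 gate and 2.54 ± 0.344 CPM in the Tnnt2 gate, and the Isl1 gate was above the Tnnt2 gate in every library. It was called in no gate against the mean of the others (Isl1 gate log2 fold change 0.41, SE 0.16, adjusted p = 0.0594).

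Foxf1, a Fox gene of splanchnic mesoderm that hedgehog activates in lung and gut mesenchyme, had a distribution like that of Gli1 and larger differences between libraries. In the Isl1 gate it was at 56.5 CPM in Wt1 and 42.2 in Wt2, and at 1.72 in Ho1 and 102 in Ho2, from 652, 430, 2 and 1170 UMIs. In the Crabp1 gate the levels were 23.4, 54.6, 4.83 and 87.4 CPM. Ho2 was the highest and Ho1 the lowest library in both gates. In the Tnnt2 gate Foxf1 was at 1.22, 0.539, 0.278 and 1.86 CPM. Foxf1 was higher in the Isl1 gate (log2 fold change 4.00, SE 0.20, adjusted p = 1.95e-12) and in the Crabp1 gate (3.67, SE 0.23, adjusted p = 4.17e-11), and the Isl1 gate held 39.0%, 55.9% and 48.0% of its UMIs in Wt1, Wt2 and Ho2 and 4.08% of 49 UMIs in Ho1. Cells in no gate held 26.7%, 14.4%, 32.7% and 31.9% of the Foxf1 UMIs of Wt1, Wt2, Ho1 and Ho2, and the Crabp1 gate 30.5%, 19.4%, 6.12% and 11.4%.

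Foxf2, the paralogue of Foxf1, whose promoter is printed above, was sparser. It was at 9.53 CPM in Wt1 and 6.58 in Wt2, and 0 in Ho1 and 10.47 in Ho2 in the Isl1 gate, and at 3.26, 8.42, 0 and 9.78 CPM in the Crabp1 gate. Ho1 again had no UMI in these gates, and the other libraries overlapped between them. In the Crabp1 gate of Ho1 the limit of 4.83 CPM is above the level of Wt1, so a difference from Wt1 was not detectable there. The log2 fold changes were 4.50 (SE 0.37, adjusted p = 4.46e-09) in the Isl1 gate and 4.02 (SE 0.45, adjusted p = 4.50e-07) in the Crabp1 gate, where it was 5.03 without Wt1 and 3.38 without Ho2. In the Tnnt2 gate Foxf2 had a mean of 0.0757 ± 0.0515 CPM (SD, n = 4), and it was lower there by −2.68 (adjusted p = 0.0171). That call was lost with doublets kept, where the log2 fold change was −1.22 (adjusted p = 0.130), with cells of a single marker (−2.37, adjusted p = 0.991) and without Wt1 (−2.48, adjusted p = 1).

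Foxd1, known from kidney stroma and arch mesenchyme, was found in both of these gates. Its levels were 2.25, 3.73, 0.862 and 5.32 CPM in the Isl1 gate of Wt1, Wt2, Ho1 and Ho2, and 4.55, 3.30, 0 and 1.58 CPM in the Crabp1 gate. The ranges overlapped, and both Wt levels in the Crabp1 gate were under the limit of Ho1. Foxd1 was higher in both, by 2.58 (SE 0.36, adjusted p = 6.23e-06) and 2.74 (SE 0.42, adjusted p = 2.27e-05) on the log2 scale. The second value was 1.83 without Wt1 (adjusted p = 0.0443) and 3.55 without Ho2. It was lower in the Tnnt2 gate (−1.32, SE 0.46, adjusted p = 0.0154), a call lost without Ho2 (−0.84, adjusted p = 0.213).

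Osr1, a zinc-finger transcription factor of the intermediate and splanchnic mesoderm, was the only gene of the 9 that was higher in cardiomyocytes. In the Tnnt2 gate it was at 19.1 CPM in Wt1 and 12.6 in Wt2, and at 8.83 in Ho1 and 14.4 in Ho2, a mean of 13.7 ± 4.26 CPM (SD, n = 4). In the Cdh5 gate it was at 0.574, 0.582, 0.257 and 0.404 CPM, below every library of the Tnnt2 gate. In the Isl1 gate it was at 20.6, 9.52, 9.48 and 66.6 CPM, where Ho2 was far above the other 3 libraries. Osr1 was higher in the Tnnt2 gate (log2 fold change 1.81, SE 0.30, adjusted p = 1.27e-05), where 35.4% of all genes were called higher, and in the Isl1 gate (2.20, SE 0.32, adjusted p = 1.32e-05). Its call in the Crabp1 gate (1.33, SE 0.41, adjusted p = 0.0150) was lost without Wt2 (1.13, adjusted p = 0.0644) and without Ho2 (1.03, adjusted p = 0.0572). The Tnnt2 gate held 38.3%, 61.4%, 84.2% and 25.8% of the Osr1 UMIs of Wt1, Wt2, Ho1 and Ho2, the Isl1 gate 24.3%, 11.5%, 1.82% and 33.4%, and cells in no gate 17.0%, 7.5%, 6.47% and 29.4%. Ho2 was the library in which the Isl1 gate held more than the Tnnt2 gate.

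**Figure D2:**
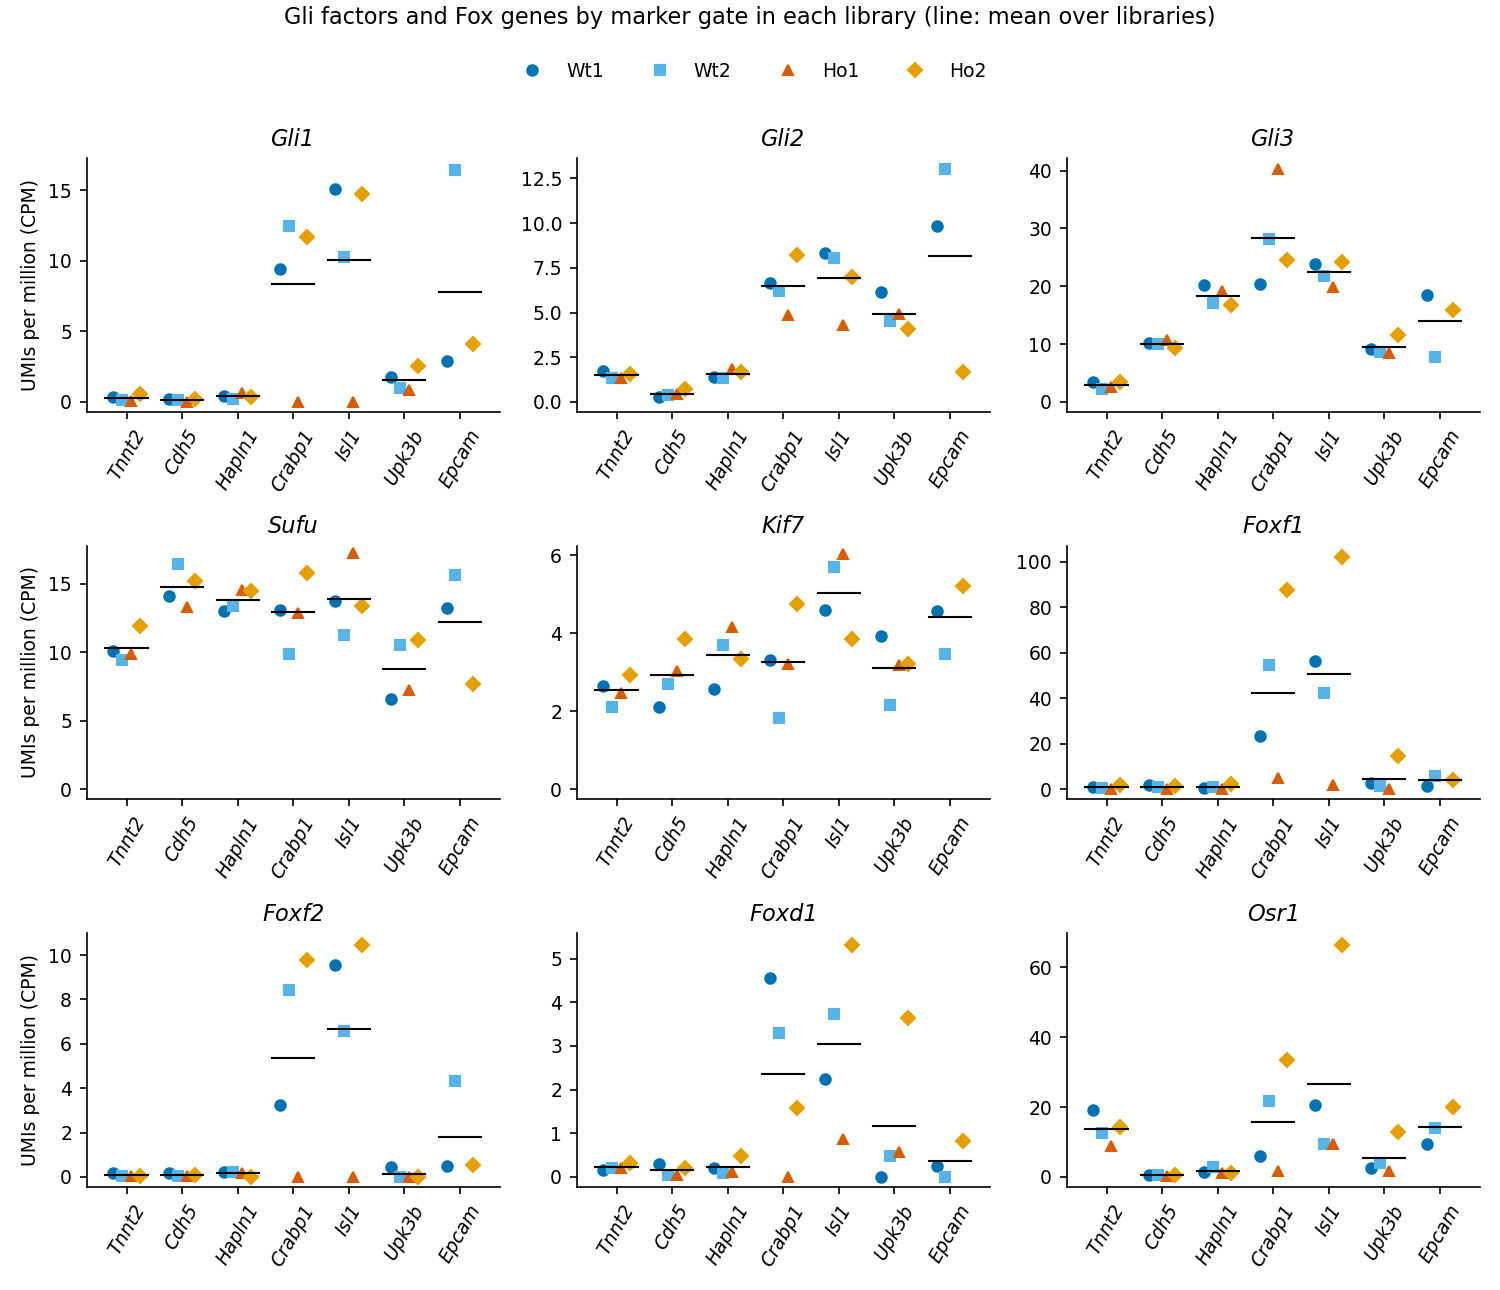
Level of each of the 9 genes (y axis, CPM, 1 panel per gene with its own scale) in the 7 marker gates (x axis), with 1 point per library and a line at the mean over libraries. Gli1, Foxf1 and Foxf2 are high in the Isl1 and Crabp1 gates outside Ho1, Osr1 is also found in the Tnnt2 gate, and Sufu and Kif7 are found in all gates.

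In the Tnnt2, Cdh5 and Hapln1 gates more of the 9 genes were called lower than higher, with 1 called higher in each. In the Tnnt2 gate 6 of the 9 genes were lower, beside 32.2% of all genes tested. In the Cdh5 gate 6 were lower beside 27.9%, with the largest differences for Osr1 (−4.14, SE 0.59, adjusted p = 2.36e-06) and Gli1 (−4.07, SE 0.69, adjusted p = 2.27e-05). Foxf2 was lower there too (−2.43, SE 1.02, adjusted p = 0.0449), a call lost without Wt1 (adjusted p = 1), without Wt2 (adjusted p = 0.147) and without Ho1 (adjusted p = 0.0517), and under 4 of the other alternatives. Its log2 fold change stayed between −2.61 and −1.95 when a library was left out, and reached −4.90 under another alternative. In the Hapln1 gate 5 were lower beside 22.1%, Foxf1 by −2.35 (SE 0.34), Osr1 by −2.05 (SE 0.45), Gli1 by −1.86 (SE 0.52), Foxd1 by −1.78 (SE 0.53) and Gli2 by −1.04 (SE 0.23), while Gli3 was higher beside 25.5%. The call of Gli1 was lost without Ho2 (−1.55, adjusted p = 0.0789), and the value was −2.64 without Ho1.

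In the Epcam gate, which had cells in 3 libraries, 2 genes were higher beside 23.7% of all genes. Gli1 was at 2.88 CPM in Wt1, 16.5 in Wt2 and 4.12 in Ho2, and Gli2 at 9.85, 13.0 and 1.65 CPM. Wt2 was the highest library for both genes. The difference of Gli1 (log2 fold change 1.87, SE 0.53, adjusted p = 0.00596) was not called without Wt2 (0.99, adjusted p = 0.179), and that of Gli2 (1.29, SE 0.30, adjusted p = 0.00120) not without Wt1 (0.75, adjusted p = 0.230), with 1.90 without Ho2. In the Upk3b gate the gene called higher was Gli2, beside 21.1% of all genes. Sufu was the gene called lower there, beside 19.1%.

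**Figure D3:**
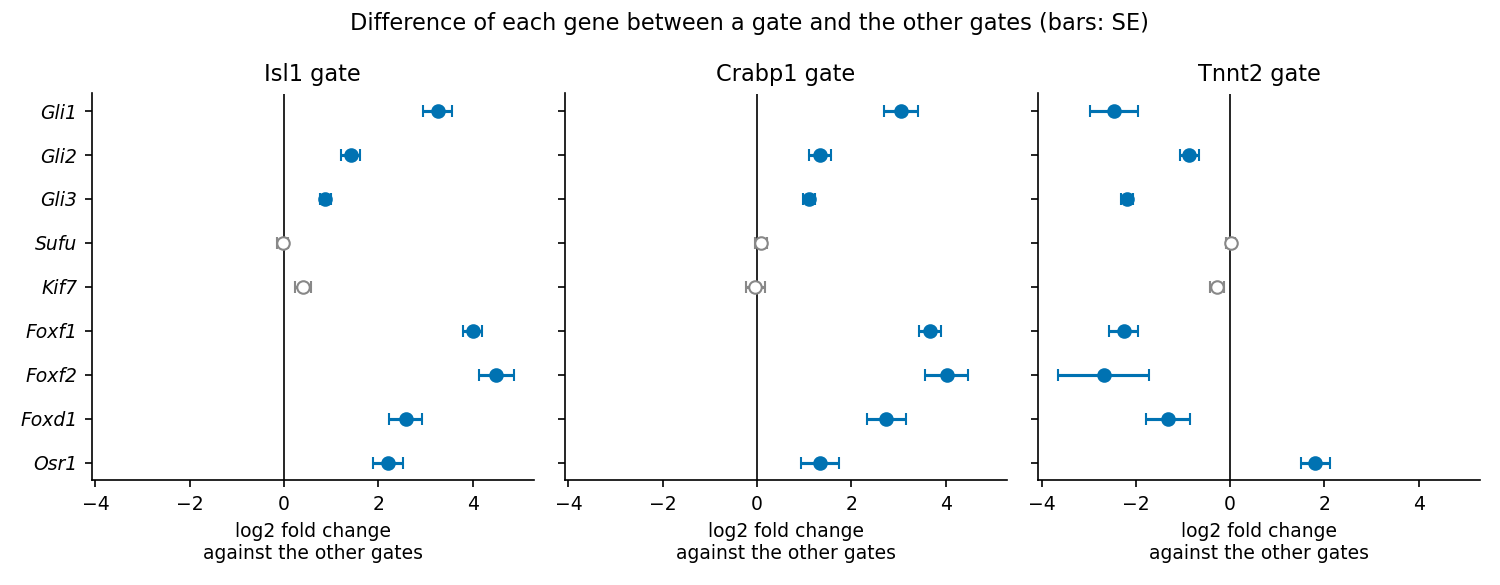
Log2 fold change of each of the 9 genes (y axis) between a gate and the mean of the other gates (x axis, bars are the SE). The Isl1, Crabp1 and Tnnt2 gates have 1 panel each. Foxf2 at 4.50 and Foxf1 at 4.00 are farthest to the right in the Isl1 gate. Foxf2 at −2.68 is farthest to the left in the Tnnt2 gate.

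The other genes of the pathway were placed beside the 9 genes. Of 8 receptors and co-receptors, 6 were higher and 0 lower in the Isl1 gate, where 18.3% of all genes tested were called higher and 15% lower. Hhip, a membrane antagonist that hedgehog induces, was higher by 3.66 (SE 0.33, adjusted p = 1.95e-08), and Ptch1, the receptor and a direct target, by 1.32 (SE 0.21, adjusted p = 4.53e-05). Ptch1 was at 84.9 CPM in Wt1 and 71.5 in Wt2, and at 12.1 in Ho1 and 90.8 in Ho2, so that Ho1 was again below the others. Lrp2 (1.63), Boc (0.85) and Smo (0.39) were among the others that were higher, while Cdon (−0.22, adjusted p = 0.433) and Gas1 (−0.01, adjusted p = 0.992) were not called. Of 22 other reported targets tested, 14 were higher, among them Foxe1 (3.99, SE 0.33), Foxd2 (3.31, SE 0.33), Tbx1 (2.70, SE 0.27) and Fgf10 (2.37, SE 0.30), and 2 were lower, Ccnd2 (−0.64, SE 0.16) and Mycn (−0.77, SE 0.19). Foxe1, Foxd2 and Tbx1 encode transcription factors, and Fgf10 a growth factor. Tbx1 and Fgf10 are also in the marker list of the Isl1 gate. Of 23 transducers 2 were higher, the ciliary receptor Gpr161 (0.56, SE 0.13) and the ciliary protein Evc (0.53, SE 0.18). Without Ho1 the receptors and the other targets gave the same counts, 6 of 8 higher and 14 higher with 2 lower.

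Of 7 genes for ligands and their release, 3 were higher in the Isl1 gate and 1 lower, beside 18.3% and 15% of all genes. The ligand Shh had its highest level in the Epcam gate, at 30.3 CPM in Wt1, 45.1 in Wt2 and 148 in Ho2, and Ho2 was above both Wt libraries. It was higher there by a log2 fold change of 9.95 (SE 0.35, adjusted p = 9.90e-13). Shh in the Isl1 gate was at 1.65, 3.04, 0 and 1.74 CPM in Wt1, Wt2, Ho1 and Ho2 (4.19, SE 0.62, adjusted p = 7.51e-05). The limits of both Isl1 and Epcam were passed by 566 cells, and the part of epithelial cells in this level was not tested. Scube1 (1.14, SE 0.19) and Scube3 (1.02, SE 0.20), which help to release the ligand, were higher and the ligand Dhh (−2.14, SE 0.80, adjusted p = 0.0414) was lower.

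The second comparison, between Ho and Wt, addressed the effect of the Cyp51 substitution on these genes. In whole libraries 0 of the 9 genes were called, and 0% of 16978 genes tested were called by edgeR, with 786 at an unadjusted p under 0.05 and 22 called by DESeq2. Gli1 was at 5.27 CPM in Wt1 and 1.87 in Wt2, and at 0.255 in Ho1 and 3.53 in Ho2, from 511, 197, 29 and 348 UMIs. Ho2 lay between the Wt libraries and Ho1 was below both. The log2 fold change, Ho against Wt, was −0.91 (SE 1.13, adjusted p = 0.877). In such sums fewer cells of a type and less RNA per cell cannot be told apart, and Ho1 had 1.23% of its cells in the Isl1 gate. Foxf1 was at 17.2, 7.30, 0.431 and 24.7 CPM (0.03, SE 1.46, adjusted p = 0.998) and Osr1 at 10.1, 7.97, 5.31 and 23.2 CPM (0.68, SE 0.64, adjusted p = 0.834). For both genes the Ho libraries lay on either side of the Wt libraries. Sufu differed little, at 12.4, 12.0, 11.5 and 12.8 CPM (0.04, SE 0.11, adjusted p = 0.940). With 2 libraries against 2, an exact permutation test of any single level could not go below p = 0.333.

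Within the 6 gates that could be tested the same held, with 0 calls among those of the 9 genes that had enough counts. In the Tnnt2, Cdh5, Hapln1, Crabp1, Isl1 and Upk3b gates 7, 4, 6, 7, 9 and 6 of them were tested. Called genes were 0% in the Tnnt2, Cdh5, Crabp1 and Isl1 gates, 0.0298% in the Hapln1 gate and 0.122% in the Upk3b gate. At an unadjusted p under 0.05 there were 916, 659, 122 and 409 genes in the first 4 gates, and DESeq2 called 18, 21, 1 and 10 genes there and none of the 9. The log2 fold changes in the Isl1 gate were −0.25 (SE 0.75) for Gli1, 0.31 (SE 0.99) for Foxf1, 0.06 (SE 0.21) for Gli3 and 1.56 (SE 0.75) for Osr1, and none passed the test (adjusted p = 1.00 for each). Gli1 there rested on 174 UMIs in Wt1 and 105 in Wt2, and 0 of 1160124 in Ho1 and 169 in Ho2. Against a limit of 3 UMIs in Ho1 for a count of 0, which is 2.59 CPM, the Wt mean of Gli1 of 12.7 CPM was at least 4.91-fold higher, and Foxf2 at least 3.12-fold. The exact 95% Poisson interval of a count of 0 reached 3.18 CPM, against which these folds were 3.99 and 2.53. The Ho2 level of Gli1 lay between those of Wt1 and Wt2.

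The cells of the Isl1 gate in Ho1 differed in other markers too. The 7 contractile genes used to check the Tnnt2 gate summed to 1129 CPM in Wt1 and 2219 in Wt2, and 6879 in Ho1 and 2280 in Ho2, with Actc1 as the most abundant, and Tnnt2 was at 201, 338, 940 and 362 CPM. The 7 epithelial genes summed to 301, 409, 81.0 and 265 CPM, and 4 of them were at 0 in Ho1. Isl1 itself was at 389, 427, 265 and 344 CPM, and the 7 genes of the Isl1 list summed to 70.0, 50.3, 14.7 and 44.1 CPM. The 7 genes used to check the Hapln1 gate (cushion genes) summed to 507, 629, 859 and 423 CPM. Sums of 5 glial genes were 6.76, 5.20, 19.8 and 5.58 CPM. Ho1 was the highest library for the contractile, cushion and glial genes and the lowest for the epithelial genes, Isl1 and the Isl1 list. The 46 cells of the Crabp1 gate in Ho1 had the highest sums of the contractile genes, at 1121 CPM against 228, 711 and 354 in Wt1, Wt2 and Ho2, and of the 7 cushion genes, at 1313 CPM against 557, 806 and 494. Their 5 glial genes summed to 62.8 CPM against 11.8, 13.2 and 13.3. The part of these markers in the levels of Gli1 and Foxf1 was not tested.

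Without Ho1, the single Ho library left was assumed to vary as the Wt libraries do, and 4 calls appeared. Foxf1 was higher in Ho2 than in Wt by 1.10 (SE 0.18, adjusted p = 0.00390) in the Isl1 gate, and Osr1 by 2.18 (SE 0.27, adjusted p = 0.000136), where 0.466% of all genes were called higher. In the Upk3b gate, where 0.674% were called higher, Foxf1 differed by 2.95 (SE 0.43, adjusted p = 9.17e-09) and Osr1 by 1.87 (SE 0.39, adjusted p = 0.000345). Foxf1 in that gate had 6 UMIs in Wt1 and 6 in Wt2, and 1 in Ho1 and 68 in Ho2, and Ho1 was below both Wt libraries. Without Ho2 the direction of Foxf1 in the Isl1 gate turned (−4.76, adjusted p = 0.000138), and Gli1 and Foxf2, which had no UMI in Ho1, were called lower, beside 2.44% of all genes. These calls therefore depended on which Ho library was used. In the Isl1 gate the 7 genes used to check the Upk3b gate, with Tcf21 as the most abundant and none at 0, summed to 124 and 90.3 CPM in the Wt libraries, 96.5 in Ho1 and 191 in Ho2, and their part in the levels of Foxf1 and Osr1 was not tested. The full comparison gave 2.10 (SE 0.96, adjusted p = 0.923) for Foxf1 in the Upk3b gate.

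In cardiomyocytes of the Tnnt2 gate 7 of the 9 genes had enough counts to be tested. Osr1 was at 19.1, 12.6, 8.83 and 14.4 CPM in Wt1, Wt2, Ho1 and Ho2, and the groups overlapped. The log2 fold change was −0.46 (SE 0.22, unadjusted p = 0.0583, adjusted p = 0.783). Whether the genotype effect differed between gates was tested as an interaction, in which 0 of the 9 genes and 0% of 14810 genes were called by edgeR (411 at an unadjusted p under 0.05). The smallest unadjusted p among the 9 was 0.0178, for Foxd1. Over the lists of other hedgehog genes, the single call between Ho and Wt was that of Barx1, a homeobox gene of arch mesenchyme, which was higher in Ho in the Upk3b gate by 2.49 (SE 0.27, adjusted p = 0.00971), where 0.122% of all genes were called in either direction. Barx1 was there at 3.50 and 4.78 CPM in the Wt libraries and at 19.9 and 27.0 CPM in Ho1 and Ho2, from 8, 20, 69 and 126 UMIs, and the groups did not overlap. It was called without each library in turn, with log2 fold changes from 2.27 to 2.75.

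The third question was whether Gli1 and Foxf1 were detected in the same cells. Cells were thinned to 5000 UMIs each, which left out 5012 of 29168 cells, and the number of cells with UMIs of both genes was divided by the number that independent detection would give. In Wt1 42 cells had both against 12.5 by independence, in Wt2 17 against 2.73, in Ho1 0 against 0.0253 and in Ho2 49 against 10.6. The ratios were thus 3.37, 6.24, 0 and 4.64. All 3 libraries with any such cell were above 1, and Ho1 had too few cells of either gene to give a value. The mean was 4.75 ± 1.44 (SD, n = 3) without Ho1, and 3.56 ± 2.65 (SD, n = 4) with Ho1 counted as 0. Foxf1 was detected in 24.0%, 23.0% and 43.8% of Gli1 cells in Wt1, Wt2 and Ho2, and in 6.68%, 3.44% and 8.69% of the other cells. Cells of a library are not replicates, and no test was made across cells.

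Since both genes were found in the same gates, the ratio was also computed within gates. Within the Isl1 gate it was 1.67 in Wt1, 1.88 in Wt2 and 1.58 in Ho2, a mean of 1.71 ± 0.151 (SD, n = 3), above 1 in each of these libraries and below their ratios over all cells. In the Crabp1 gate it was 1.98, 0.379 and 1.62, from 13, 1 and 7 cells with both genes, and the libraries did not share a direction. The value of Wt2 rested on that 1 cell, against 2.64 by independence. Over all cells without Ho1, the mean ratio of Gli1 was 5.77 ± 1.46 with Foxf2, 5.36 ± 1.24 with Hhip, 3.31 ± 1.11 with Ptch1 and 2.33 ± 0.989 with Osr1. Within the Isl1 gate these means were lower, 2.37 ± 0.745 with Foxf2, 1.45 ± 0.468 with Hhip, 1.55 ± 0.319 with Ptch1 and 1.31 ± 0.876 with Osr1 (SD, n = 3). There the libraries did not share a direction for Osr1, at 2.32, 0.815 and 0.785 in Wt1, Wt2 and Ho2 from 12, 1 and 9 cells with both genes, or for Hhip, with 0.917 in Wt2 from 2 cells. With Sufu the ratio was 1.14 ± 0.182 over all cells and 1.37 ± 0.233 within the Isl1 gate. In that gate it was 1.52 ± 0.104 with Gli3, and 0.679 ± 0.184 with Gli2, below 1 in each of these libraries. Gli2 had 96, 82 and 80 UMIs there in Wt1, Wt2 and Ho2 before thinning. Its ratio thus rests on few cells with both genes, and no direction is read from it. Over all cells the ratio of Gli1 was 0.385 ± 0.0161 with Tnnt2 and 0.0729 ± 0.0402 with Cdh5, below 1 in each of Wt1, Wt2 and Ho2.

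**Figure D4:**
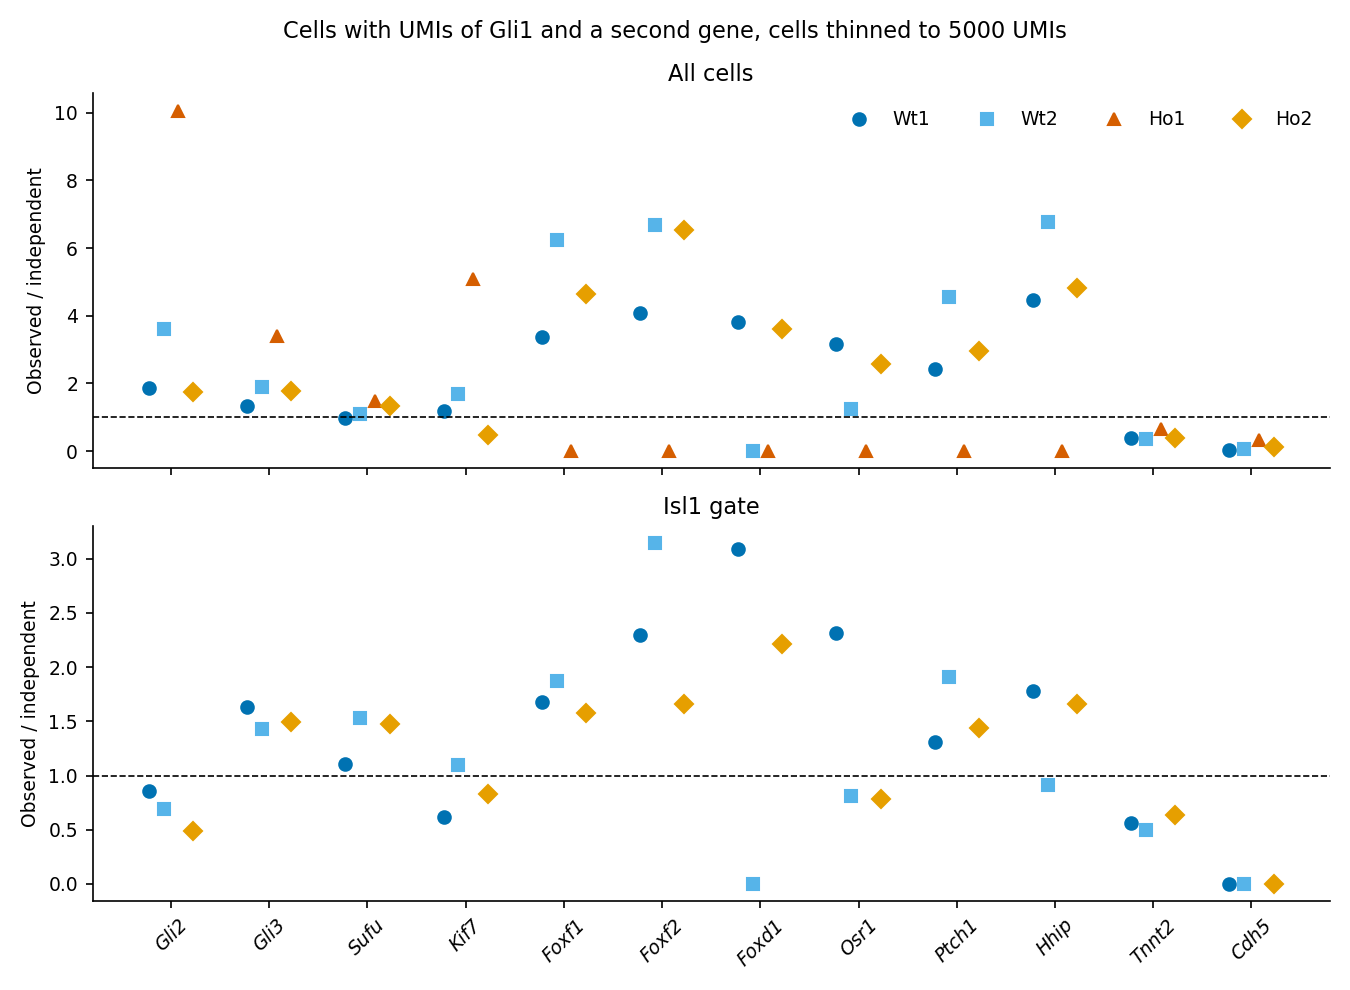
Observed number of cells with UMIs of Gli1 and a second gene divided by the number under independence (y axis), by second gene (x axis), with 1 point per library, for all cells and for the Isl1 gate, each cell thinned to 5000 UMIs and a dashed line at 1. For Foxf1 the points of Wt1, Wt2 and Ho2 are at 3.37, 6.24 and 4.64 over all cells and closer to 1, at 1.67, 1.88 and 1.58, in the Isl1 gate.

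The share of cells with a Gli1 UMI in the Isl1 gate was 6.47% in Wt1, 4.55% in Wt2, 0 of 85 cells in Ho1 and 7.54% in Ho2. For the 0 of 85 cells 3 cells would be 3.53%, and the exact 95% interval reached 4.25%, close to the share of Wt2. Without thinning the shares were 13.5%, 11.1%, 0 and 19.1%. In the Tnnt2 gate, where Gli1 was low, they were 0.0894%, 0.159%, 0.0350% and 0.254% after thinning. The Isl1 gate was thus above the Tnnt2 gate in Wt1, Wt2 and Ho2, at a median of 12000 UMIs per cell before thinning against 19221 in the Tnnt2 gate. Foxf1 had a UMI in 19.6%, 15.8%, 0 and 32.2% of thinned cells of the Isl1 gate, and in 30.4%, 28.1%, 1.16% and 53.8% before thinning. Among 48 cells with macrophage markers 0 had a Gli1 or Foxf1 UMI after thinning, where 3 cells would be 6.25% and the exact 95% interval reached 7.40%.

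Across the 27 sums per library and gate, Gli1 was compared with 9769 genes of at least 5 CPM on average, by Pearson's r of log2(CPM + 1). The sums share libraries and gates, so these values are a description. The genes closest to Gli1 began with Saa1 (r = 0.966), Saa2 (0.960), Polr2m (0.940) and Ptch1 (0.917), and included Ccdc34, Cops3, Rab28, Ntng1 and Ppp1cc (0.894). Among the other 8 genes, Foxf2 had r = 0.925, Foxf1 0.871, Gli2 0.774, Foxd1 0.719, Osr1 0.677, Gli3 0.419, Kif7 0.316 and Sufu 0.0017. With the same limit of 5 CPM, the genes closest to Foxf1 were Tpmt (0.891), Ntng1, Rnf122, Saa2, Rbm18, Sfrp2, Fndc3c1, Hoxa2, Cops3 and Cops4 (0.851). Of the other 8 genes, Foxf2 had r = 0.906 with Foxf1, Gli1 0.871, Foxd1 0.846, Osr1 0.659, Gli2 0.653, Gli3 0.550, Kif7 0.292 and Sufu 0.121.

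**Figure D5:**
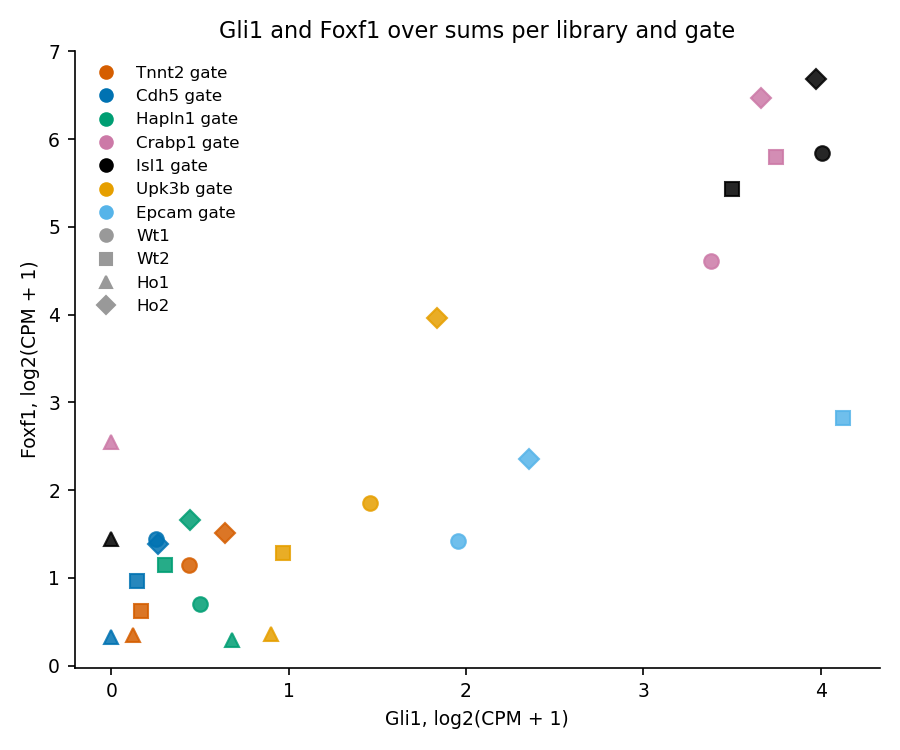
Foxf1 (y axis) against Gli1 (x axis), both as log2(CPM + 1), with 1 point for each of 27 sums per library and gate, coloured by gate and marked by library. Points of the Isl1 and Crabp1 gates outside Ho1 lie at the upper right, and those of the Tnnt2, Cdh5 and Hapln1 gates at the lower left (r = 0.871).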

How the data were processed

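The authors counted UMIs with Cell Ranger 6.1.1 on mm10 (GRCm38), per the labels, and deposited raw counts per gene and barcode for each of 4 libraries; the labels also name Seurat 4.1.0. These counts, not normalized, were used as deposited. The 9 genes and all lists were chosen with earlier results of these data known.

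Cells held 500 to 50000 UMIs, 500 to 6000 genes and no more than 20% mitochondrial counts. Scrublet in scanpy 1.11.5 marked doublets, which were left out (746 and 464 in Wt1 and Wt2, 440 and 334 in Ho1 and Ho2). A cell passed a gate with at least 2 UMIs of the marker and a level of at least 10% of its 99th percentile. UMIs were summed per library and gate over at least 20 cells. edgeR 4.0.16 in R 4.3.3 tested the sums (glmQLFTest, TMM, filterByExpr, Benjamini-Hochberg at 0.05). Ho and Wt were compared without a block, gates with the library as a block. The SE of an edgeR log2 fold change was calculated as its absolute value divided by the square root of the F value of its test. Shares have exact (Clopper-Pearson) 95% intervals, a count of 0 was given a limit of 3 counts, and both cover counting error only. Motif and gene positions came from RefSeq and GENCODE M21, which holds 99.6% of the gene identifiers.

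Named genes were the 9 genes, the genes of 4 pathway lists that passed a test, and the 10 genes most correlated with Gli1 or Foxf1. A few genes that these rules select are not reported here. On simulated data with 200 changed genes, edgeR recovered 170 at a log2 fold change of 1 between Ho and Wt in whole libraries. At the same fold change it recovered 141 in the Isl1 gate, and 200 for the Isl1 gate against the others. All simulated sums had the same mean level per gene apart from these changes, with a single fixed dispersion, and only well-counted genes were changed. The larger differences between the real libraries were not simulated, so the recovery of the 9 genes is not known. Alternatives were DESeq2 1.42.0, RLE normalization, other filters on counts, cells and gates, the replicate number as a block, other thinning and leaving out each library. The crossed replicate numbers were added after the data were seen.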

Additional observations from a re-analysis of the deposited data

Results flagged for a closer look

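Cells that passed no gate entered the whole-library sums and the co-detection over all cells, but no comparison of gates. In these cells of Ho2, Foxf1 was at 98.3 CPM, against 35.0 in Wt1, 18.5 in Wt2 and 3.23 in Ho1. Osr1 was at 85.01 CPM in Ho2, against 13.1, 10.49 and 7.87 CPM in Wt1, Wt2 and Ho1. Foxd1 was at 7.96 CPM in Ho2, against 2.59, 2.00 and 0 CPM. For all 3 genes Ho2 was above both Wt libraries and Ho1 was below both, so the Ho libraries lay on either side of the Wt libraries. Whether the levels of Ho2 exceed the spread between libraries was not tested. In the same cells the 7 genes used to check the Upk3b gate, with Tcf21 as the most abundant and none at 0, summed to 194 CPM in Ho2, against 70.8, 64.4 and 85.4 CPM in Wt1, Wt2 and Ho1. Median depth was 8942 UMIs in Ho2, against 2657, 2566 and 4640 UMIs. The part of these in the levels was not tested. Groups of 2 libraries were too small for a test of outlying libraries.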

How the results depend on the processing

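The 38 calls between gates ranged from 32 to 43 over the alternatives (35 to 37 when a library was left out), 28 were kept under every one, and 0 called values changed sign. Cells that passed the limit of a single marker gave the 32, and lost among others Gli1 in the Epcam gate (1.11, adjusted p = 0.399). Of the co-detection ratio, 3.20 was found after thinning to 2000 UMIs, 5.19 with no thinning, and 2.67 to 4.75 when a library was left out, of which 4.75 is without Ho1 and the others count Ho1 as 0. Between Ho and Wt, 0 of the 9 genes were called, 2 with no filter on low counts (Osr1 in the Tnnt2 gate, −0.46, adjusted p = 0.00873, and Foxf1 in the Upk3b gate, 2.10, adjusted p = 0.000169), and 0 to 4 when a library was left out (4 without Ho1, 3 without Ho2). With no filter, 19 to 245 of all genes were called per gate, against 0 to 13; without Ho1 there were 0 to 400 and without Ho2 11 to 887. The cause was not tested. Leaving out a library gave log2 fold changes in whole libraries of −3.71 to 0.0357 for Gli1, −4.74 to 1.01 for Foxf1 and −0.67 to 1.36 for Osr1. In the Isl1 gate they were −9.60 to 0.26 for Gli1, where the lowest is fitted against 0 UMIs and is no bound, −4.76 to 1.10 for Foxf1 and −0.61 to 2.20 for Osr1, and for Osr1 in the Upk3b gate −0.93 to 1.87.

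With the replicate number as a block, Foxf1 turned to −1.49 in whole libraries and −0.59 in the Isl1 gate, and 0 of the 9 genes were called. The correlation of deviations between same-numbered libraries was −0.47 in whole libraries, −0.27 in the Isl1 gate and 0.01 in the Hapln1 gate. With 2 libraries per group, crossing the numbers only turns its sign, so it cannot show whether the numbers pair the libraries. Under this block, genes called rose from 4 to 27 in the Hapln1 gate, from 13 to 27 in the Upk3b gate and from 0 to 17 in the Tnnt2 gate. The crossed pairing, tried after the data were seen, called 0 of the 9 genes and 16 to 72 of all genes, with Foxf1 at −1.25 and −0.32.

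Depth limits the sparse genes, since 3 UMIs correspond to 2.59 CPM in the Isl1 gate of Ho1. Of the 10 calls between gates that did not hold under some alternative, those lost without a library stand beside their values. With cells of a single marker 8 were lost, Foxf2 in the Tnnt2 and Cdh5 gates, Gli1 in the Epcam and Hapln1 gates, Osr1 in the Crabp1 and Hapln1 gates (−1.80, adjusted p = 0.0862 in the last) and Sufu in the Cdh5 (0.41, adjusted p = 0.0667) and Upk3b gates. The log2 fold change of Sufu in the Cdh5 gate was thus about as large as with all cells. With the gate limit at 20%, Foxd1 in the Tnnt2 gate, Foxf2 in the Cdh5 gate and Osr1 in the Crabp1 gate were lost, and Foxf2 in the Cdh5 gate was also lost at 5% and with doublets kept.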
